A study of Mus musculus with 4 samples.

Results

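The genes described are 9 interferon factors and interferon-stimulated genes (Stat2, Irf1, Irf7, Irf8, Oas1a, Oas2, Zbp1, Isg15 and Bst2), found by symbol among 55487 genes in the files. They were chosen by name for their place in the interferon response, with earlier results of these data known. They were measured by RNA sequencing in stem cells of the mouse intestine. LISC are Lgr5-EGFP-positive cells sorted from large-intestinal crypts, and SISC are Lgr5-EGFP-positive, CD24-negative cells sorted from small-intestinal crypts, with 2 libraries each. All animals were untreated, aged 6 to 12 weeks, and carried Lgr5-EGFP-IRES-creERT2, an allele that places a green fluorescent protein and an inducible recombinase under Lgr5, a gene of intestinal stem cells. The CD24 gate, which is meant to remove CD24-high secretory cells, is named for SISC only. Paneth cell markers were higher in SISC than in LISC, as given below, and the effect of the gate was not tested. Separate animals are not stated for the replicates, though sex-linked genes, given below, show that the 2 SISC libraries came from different animals. The p-values therefore reflect the spread between these libraries, part of which may be technical.

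Interferons are secreted proteins, of which type I and type III are released by cells on sensing viral or other foreign nucleic acid. Type I and type III interferons signal through Janus kinases to a complex that holds STAT2 and IRF9 and binds the interferon-stimulated response element (ISRE) in front of its target genes. Type II interferon acts mainly through another element, the gamma-activated site (GAS). The intestinal epithelium is known to respond to type III interferon and to keep a basal level of interferon-stimulated transcripts without infection. The comparison of LISC with SISC asked whether these genes differ by gut segment.

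The promoter windows of the genes are shown first because interferon-activated factors act through elements in front of such genes. RefSeq promoter windows of GRCm38.p6, from 250 bases before to 50 bases after a start, were given for 7 of the 9 genes (9 windows), not for Oas2 and Zbp1. An ISRE-type pair was searched on both strands as 2 blocks of GAAA with any 2 bases between them (TTTC blocks when read from the opposite strand), and it occurred in 4 of the 7 genes, against 3.99% of the 27025 genes with a window. Counted by window, it was in 4 of 9, against 3.44% of all 32851 windows. Capitals mark the matches, and the sequences run 5′ to 3′ on the strand of the gene.
Isg15, chr4:156200860-156200911, minus strand: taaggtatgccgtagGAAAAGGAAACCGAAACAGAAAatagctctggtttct
Oas1a, chr5:120907526-120907560, minus strand: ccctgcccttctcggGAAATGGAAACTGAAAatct
Bst2, chr8:71537572-71537617, minus strand: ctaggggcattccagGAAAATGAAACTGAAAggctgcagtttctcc
Stat2, chr10:128270261-128270300, plus strand: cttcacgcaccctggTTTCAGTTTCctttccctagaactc
Isg15 held 3 overlapping matches, the first beginning 78 bases before the start, and Oas1a and Bst2 held 2 overlapping matches each, the first of them 20 bases before the start in Oas1a and 130 bases before it in Bst2. Stat2 held 1 match on the opposite strand, 222 bases before the start.

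A GAS-type element, searched as TTCNNNGAA, which reads the same on both strands, occurred in 4 of the 7 genes, against 9.55% of genes with a window, and in 4 of 9 windows, against 8.3% of all windows. The windows of Irf1 and Irf8, which had no ISRE-type match, are shown with these matches in capitals.
Irf1, chr11:53769909-53769947, plus strand: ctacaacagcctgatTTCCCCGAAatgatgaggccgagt
Irf8, chr8:120736172-120736228, plus strand: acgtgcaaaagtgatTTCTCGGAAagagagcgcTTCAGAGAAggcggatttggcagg
The match of Irf1 began 90 bases and those of Irf8 171 and 153 bases before the start. Oas1a and Bst2 held 1 match each, and that of Bst2 shares its last bases with the ISRE-type pair. Irf7 had no match of either kind. A match is a description of letters and not evidence of binding, and no match says only that these letters are not in this window.

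Total expected counts were 12795434 and 24142212 in LISC replicates 1 and 2 and 16490485 and 27227715 in SISC replicates 1 and 2. Nuclear rRNA took 24.1% to 28.5% of counts in the replicate 1 libraries and 0.0917% to 0.0997% in the replicate 2 libraries, so differences are also given within each replicate number, as single-library values with no test. Epithelial markers, Lgr5 among them, were read in every library, at 89.7 to 173 CPM for Lgr5. SISC replicate 1 stood apart by sex-linked genes, with Xist at 539 CPM and Ddx3y, Uty, Kdm5d and Eif2s3y at 0, while in the other 3 libraries Xist was at most 0.812 CPM and those 4 genes were at 13.8 CPM or more. By these genes SISC replicate 1 is female and the other 3 libraries are male. SISC replicate 1 thus shares no animal with SISC replicate 2 or LISC replicate 1. The part of sex in the values below was not tested, and differences without SISC replicate 1 are given. CPM here are counts divided by library size after TMM scaling, edgeR's correction for library composition.

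None of the 9 genes was called different between LISC and SISC by edgeR's quasi-likelihood test at an adjusted p below 0.05, against 2.2% of the 14165 genes tested (1.45% higher and 0.741% lower in LISC), and all 9 passed the filter on low counts. At an unadjusted p below 0.05 there was 1, Oas2, against 13.4% of all tested genes (8.73% higher and 4.67% lower). Oas2 was also the single gene of the 9 that other settings called, always as higher in LISC. These were DESeq2 (5.54% of genes higher and 2.81% lower), edgeR without the filter on low counts (3.92% higher and 1.94% lower) and edgeR with the replicate number as a block (7.17% higher and 3.7% lower). The log2 difference was above 0 for 8 genes and below 0 for Irf1, with a median of 0.48, against −0.02 over all tested genes. It was under 1 in size for 6 of the 9, against 82.5% of all tested genes. Both LISC libraries lay above both SISC libraries for 5 genes, an arrangement found in 21.9% of tested genes, and below them for 1, found in 18.4%. Because the 9 genes were chosen with earlier results of these data known, these comparisons with all genes are a description only. In sorted bulk samples, a change in the share of cells that express a gene and a change in RNA per cell cannot be told apart. Without SISC replicate 1 none of the 9 was called, and the log2 differences were 0.69 for Stat2, −0.59 for Irf1, 1.59 for Irf7, 0.39 for Irf8, 0.81 for Oas1a, 5.74 for Oas2, 1.30 for Zbp1, 1.26 for Isg15 and 0.53 for Bst2. Each kept the sign it had with all 4 libraries.

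**Figure D1:**
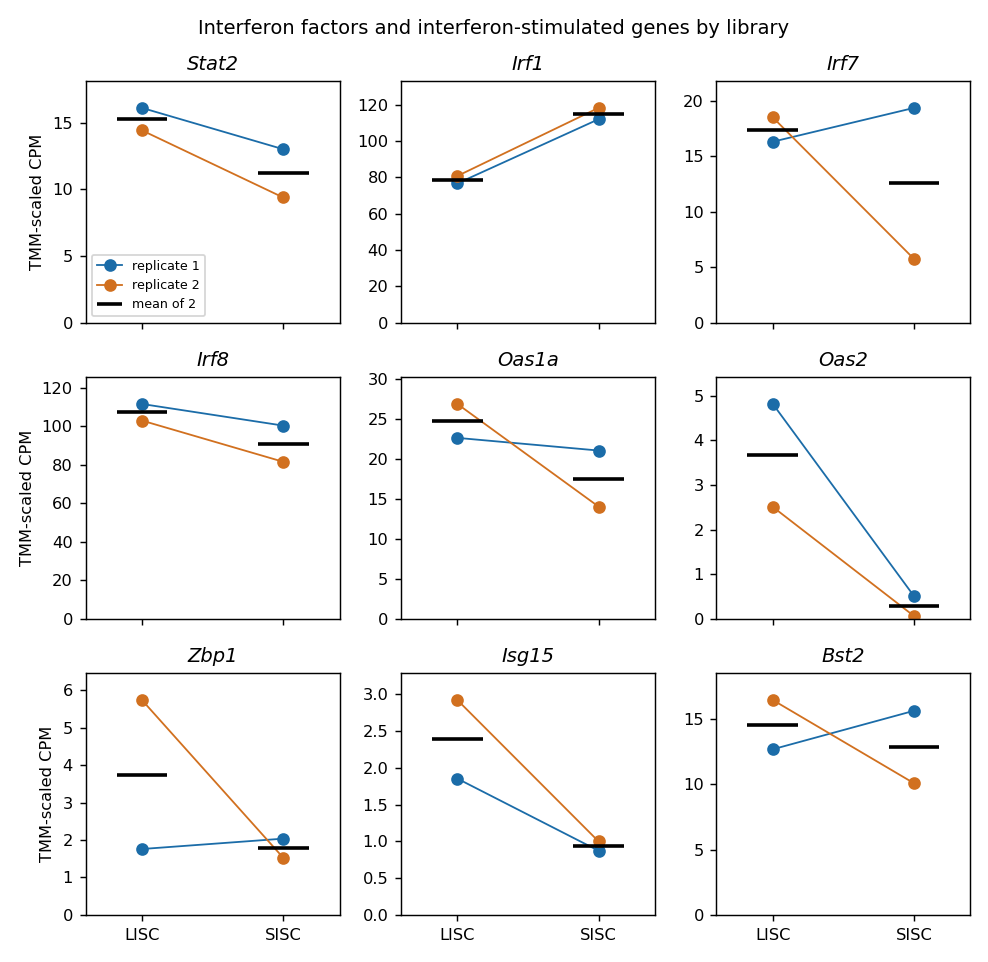
TMM-scaled CPM of the 9 genes (vertical axes, from 0) in LISC and SISC, with 1 point per library, lines joining libraries of the same replicate number and black bars for the mean of 2 libraries. Irf1 lies lower in both LISC libraries (76.7 and 80.8 CPM, against 112 and 118 CPM in SISC), while Irf7, Zbp1 and Bst2 cross over between replicate numbers.

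Among the transcription factors, Irf1 was read at 76.7 and 80.8 CPM in LISC replicates 1 and 2, against 112 and 118 CPM in SISC replicates 1 and 2. IRF1 is a factor induced by type II interferon, and it also keeps basal antiviral transcription in epithelial cells. Both LISC values were below both SISC values, and the replicates of each group differed little, with means of 78.8 ± 2.89 CPM in LISC, against 115 ± 4.41 CPM in SISC (SD, n = 2 each). LISC over SISC, the log2 difference was −0.55 ± 0.26 (SE), with a 95% interval from −1.21 to 0.11 (edgeR adjusted p = 0.500). It was −0.55 within replicate number 1 and −0.55 within replicate number 2, and lay between −0.59 and −0.51 under all 12 alternatives run. Irf1 (ENSMUSG00000018899) lies on chromosome 11, 53770014 to 53778374, plus strand. The gene Gm17334, annotated on the opposite strand within it, had 0 to 18 counts per library.

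Irf8 was read at 112 and 103 CPM in the LISC libraries, against 100.3 and 81.6 CPM in the SISC libraries. IRF8 is best known as a factor of macrophages, dendritic cells and B cells. Here it was among the better expressed of the 9 genes in every library, and the groups lay close together without overlapping. This amounted to a log2 difference of 0.24 ± 0.27 (95% interval −0.47 to 0.94, edgeR adjusted p = 0.925). This interval was the only one of the 9 that stayed within a log2 difference of 1 on both sides, so a difference of more than 2-fold is outside it. Irf8 (ENSMUSG00000041515) lies on chromosome 8, 120736358 to 120756694, plus strand. The annotated gene Gm20388 spans it on the same strand and took 349 to 569 estimated counts per library. The deposited posterior SD of the Gm20388 count was 47.9 to 126, while that of the Irf8 count was 0 in all 4 libraries.

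The level of Irf8 stands beside very low levels of most blood cell markers. The summed level of 8 leukocyte markers (Ptprc, Coro1a, Laptm5, Tyrobp, Fcer1g, Cd52, Cd53 and Arhgdib) was 2.32 and 6.19 CPM in LISC, against 1.31 and 1.69 CPM in SISC. Adgre1, which encodes the macrophage surface protein F4/80, had 0 counts in every library, and Itgax, Flt3 and Siglech, markers of dendritic cells, had at most 0.0344 CPM. The 10 macrophage and dendritic cell markers summed to 38.1 and 37.2 CPM in LISC and to 21.2 and 23.8 CPM in SISC. Most of that sum was Cd14, with 33.3 and 33.0 CPM in LISC, against 13.7 and 17.2 CPM in SISC. Itgam and Cd68 went the other way. Itgam was read at 3.89 and 3.06 CPM in LISC, against 5.60 and 4.09 CPM in SISC. Cd68 was read at 0.741 and 0.962 CPM in LISC, against 1.53 and 2.25 CPM in SISC. For B and plasma cells, 6 markers summed to 0.649 and 0.894 CPM in LISC and to 1.46 and 1.62 CPM in SISC. The 10 markers of T cells and intraepithelial lymphocytes summed to 1.30 and 2.34 CPM in LISC, against 0.509 and 4.03 CPM in SISC, and 7 stromal and endothelial markers to 1.30 and 1.86 CPM in LISC, against 4.95 and 1.25 CPM in SISC.

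**Figure D2:**
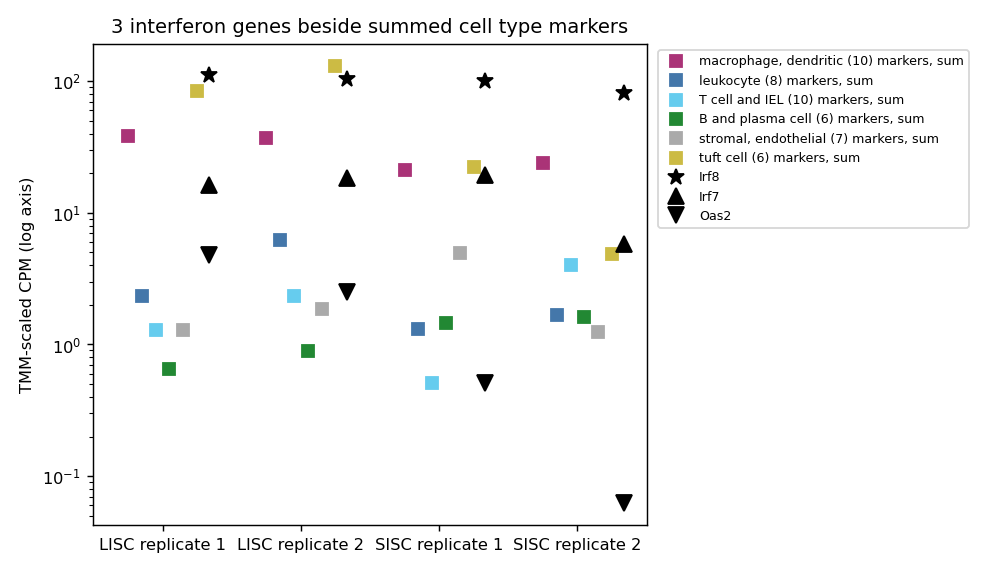
TMM-scaled CPM (vertical log axis) in each of the 4 libraries for Irf8, Irf7 and Oas2 (black symbols) and for the summed markers of 6 other cell types (coloured squares, number of genes in parentheses, IEL for intraepithelial lymphocytes). Irf8 stays between 81.6 and 112 CPM while leukocyte markers sum to at most 6.19 CPM. Oas2, Irf7 and Irf8 are all lowest in SISC replicate 2, as are the tuft cell and the stromal and endothelial sums, while the other sums are not.

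Irf7 was read at 16.3 and 18.5 CPM in LISC replicates 1 and 2, against 19.4 and 5.75 CPM in SISC replicates 1 and 2. IRF7 is the factor that amplifies type I interferon production, and its own gene is interferon-stimulated. The groups overlapped, since the SISC libraries held both the highest and the lowest value. The fit gave a log2 difference of 0.48 ± 0.59 (95% interval −1.05 to 2.01, edgeR adjusted p = 0.938). It was −0.25 within replicate number 1 and 1.69 within replicate number 2, and without SISC replicate 2 the fitted difference was −0.18. Irf7 (ENSMUSG00000025498) lies on chromosome 7, 141262706 to 141266481, minus strand, and 45 of its bases overlap Phrf1 on the other strand. The sources used here do not give the strand setting of the counting, so reads within overlaps with opposite-strand genes cannot be assigned to 1 gene with certainty.

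Stat2 was read at 16.1 and 14.4 CPM in LISC, against 13.0 and 9.40 CPM in SISC. STAT2 is the subunit through which the type I and type III signal reaches the ISRE. Both LISC values were above both SISC values by a small margin. The log2 difference was 0.45 ± 0.28 (95% interval −0.29 to 1.18, edgeR adjusted p = 0.700), and it was 0.31 and 0.62 within replicate numbers 1 and 2. Stat2 (ENSMUSG00000040033) lies on chromosome 10, 128270559 to 128292849, plus strand.

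Among the sensors and effectors, Oas2 had the greatest log2 difference of the 9 genes, and by TPM it was the lowest of them in 3 of 4 libraries. It was read at 4.82 and 2.51 CPM in LISC, against 0.509 and 0.0625 CPM in SISC. OAS2 is an oligoadenylate synthetase, an enzyme that makes short oligoadenylate messengers on binding double-stranded RNA. The underlying counts were 52 and 73 in LISC and 7 and 2 in SISC, so the SISC values rest on few reads. The log2 difference was 3.80 ± 1.13, with an interval from 0.89 to 6.71, and the edgeR adjusted p was 0.222. The ratio within replicate number 1 was 9.46 (exact 95% interval 4.28 to 24.7) and within replicate number 2 it was 40.2 (10.7 to 338), intervals that cover counting error only.

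The call of Oas2 depended on the test. DESeq2, which called 8.35% of all genes, gave an adjusted p of 0.0153, and edgeR without the filter, which called 5.86%, gave 0.00197. Over the 12 alternatives it ran from 0.00197 to 0.600. Leaving out 1 library at a time gave log2 differences from 2.81, without SISC replicate 2, to 5.74, without SISC replicate 1, all above 0 and none called. On the log2(TPM + 1) scale of limma-trend, which compresses low values, the difference was 0.88 (limma adjusted p = 0.0824). Oas2 (ENSMUSG00000032690) lies on chromosome 5, 120730333 to 120749853, minus strand, and Gm43068, annotated within it on the other strand, had 0 counts.

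Tuft cell markers moved with Oas2 between the groups and between the SISC libraries. Tuft cells are chemosensory cells of the epithelium, and 6 of their markers (Dclk1, Trpm5, Pou2f3, Avil, Sh2d6 and Alox5ap) summed to 83.6 and 131 CPM in LISC, against 22.2 and 4.84 CPM in SISC. None of the 6 was at 0 in any library. All 6 had a log2 difference above 0 and edgeR called 0 of them, with 5 at an unadjusted p below 0.05. As higher in LISC, DESeq2 called 4 of the 6, edgeR without the filter called 5 and edgeR with the replicate block called 2. Dclk1, which marks tuft cells, was read at 21.6 and 41.7 CPM in LISC, against 3.78 and 0.219 CPM in SISC. Irf7 had the same pair of SISC libraries apart, with replicate 2 the lower. The part of tuft cells in either gene was not tested, and within LISC Oas2 was higher in replicate 1, where the tuft sum was lower.

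Other secretory markers also parted the SISC libraries. Summed markers of goblet cells stood at 2621 and 3274 CPM in LISC and at 1742 and 279 CPM in SISC. Paneth cell markers stood at 45.8 and 23.2 CPM in LISC and at 7075 and 1217 CPM in SISC, and enteroendocrine markers at 62.8 and 90.2 CPM in LISC and at 160 and 28.3 CPM in SISC. The Paneth list held 1 called gene, the defensin gene Defa30, which was lower in LISC (log2 −8.53 ± 1.16, edgeR adjusted p = 0.0431). The enteroendocrine list held 1 called gene, the secretin gene Sct, which went against its list. Sct was read at 18.2 and 47.9 CPM in LISC, against 1.75 and 1.03 CPM in SISC (log2 4.61 ± 0.64, edgeR adjusted p = 0.0447), while the other 5 markers had log2 differences below 0. SISC replicate 1 was thus the higher of the SISC pair for each of the 4 secretory lists. It was also the higher for Irf7, Irf8, Stat2, Oas1a, Oas2, Zbp1 and Bst2 and was not for Irf1 and Isg15. The share of all genes that were higher in that library was not counted. The same pair also differed in Xist (539 against 0.812 CPM) and in nuclear rRNA (24.1% against 0.0917% of counts). The part of secretory cells or of sex in the values of the 9 genes was not tested.

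The genes most like Oas2 over the 4 libraries, by the distance between centred log2 CPM profiles among 12374 tested genes with a TPM of at least 1, were Anks6, Slc35e4, Rbpms, Glt1d1 and Gdf11. Anks6, the closest, was read at 20.4 and 12.0 CPM in LISC, against 2.18 and 0.593 CPM in SISC. None of these 5 was called (edgeR adjusted p from 0.102 to 0.310), and likeness over 4 libraries is a description only.

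Oas1a was read at 22.6 and 26.8 CPM in LISC, against 21.0 and 14.0 CPM in SISC. OAS1A is another oligoadenylate synthetase. The LISC libraries were above the SISC libraries, but LISC replicate 1 exceeded SISC replicate 1 only narrowly. On the log2 scale the difference was 0.50 ± 0.30 (95% interval −0.28 to 1.29, edgeR adjusted p = 0.671), and it was 0.10 and 0.94 within replicate numbers 1 and 2. Close copies lie beside it, and the posterior SD that the authors deposited for its count was 2.63 to 7.44 reads per library, on estimated counts of 244 to 781. Oas1a (ENSMUSG00000052776) lies on chromosome 5, 120896256 to 120907521, minus strand.

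Zbp1 was read at 1.76 and 5.74 CPM in LISC replicates 1 and 2, against 2.04 and 1.53 CPM in SISC replicates 1 and 2. ZBP1 senses nucleic acid in the Z conformation and can start necroptosis through RIPK3. Only LISC replicate 2 stood apart, and the groups overlapped. The log2 difference was 1.09 ± 0.72 (95% interval −0.78 to 2.96, edgeR adjusted p = 0.722), was −0.21 and 1.91 within replicate numbers 1 and 2, and was −0.0024 without LISC replicate 2. LISC replicate 2 also held the highest sums of leukocyte, tuft cell, goblet cell and epithelial markers. Most of that leukocyte sum was Ptprc, at 4.78 of 6.19 CPM. Laptm5 and Cd52 were also highest in that library, while Coro1a, Tyrobp, Fcer1g, Cd53 and Arhgdib were not. The part of any of these cell types in the value of Zbp1 was not tested. Zbp1 (ENSMUSG00000027514) lies on chromosome 2, 173206612 to 173218923, minus strand.

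Isg15 was read at 1.85 and 2.92 CPM in LISC, against 0.873 and 0.9996 CPM in SISC. ISG15 is a ubiquitin-like protein that is joined to other proteins after interferon exposure, and its gene is among the most strongly interferon-induced. Both LISC values were above both SISC values, all on few reads, with 20 and 85 counts in LISC and 12 and 32 in SISC. Isg15 differed by a log2 of 1.35 ± 0.62 (95% interval −0.25 to 2.94, edgeR adjusted p = 0.484), and it was 1.09 and 1.55 within replicate numbers 1 and 2. Isg15 (ENSMUSG00000035692) lies on chromosome 4, 156199424 to 156200818, minus strand.

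Bst2 was read at 12.7 and 16.5 CPM in LISC, against 15.6 and 10.1 CPM in SISC. BST2, or tetherin, holds budding enveloped viruses at the cell surface. The groups overlapped and the order of LISC and SISC differed between replicate numbers, at log2 differences of −0.30 and 0.71. The fitted difference was 0.19 ± 0.33 (95% interval −0.66 to 1.04, edgeR adjusted p = 0.972), and it was −0.12 without SISC replicate 2. Bst2 (ENSMUSG00000046718) lies on chromosome 8, 71534255 to 71537456, minus strand.

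**Figure D3:**
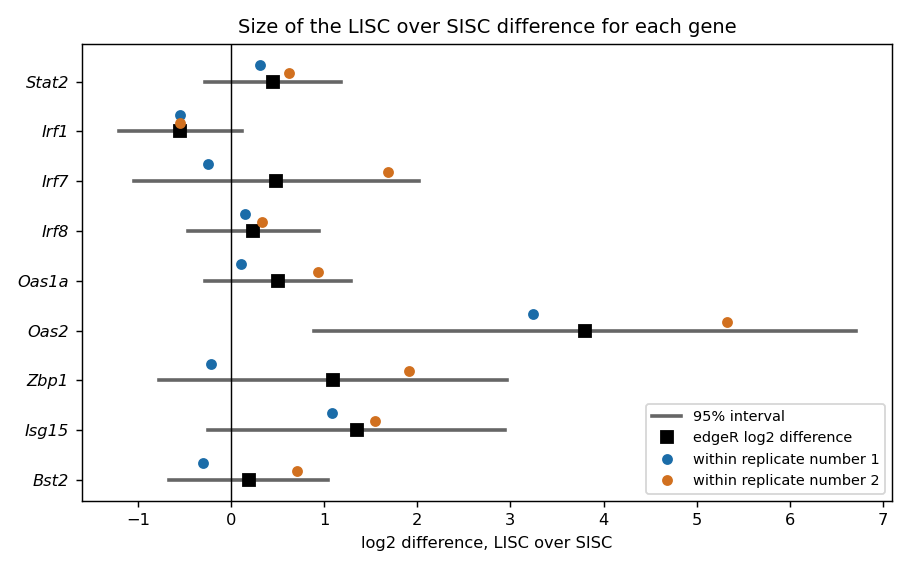
Log2 difference of LISC over SISC (horizontal axis) for the 9 genes, with edgeR's estimate as a square, its 95% interval as a bar and single-library differences within replicate numbers 1 and 2 as coloured points. The interval of Oas2 lies above 0 (0.89 to 6.71) and the other 8 include 0. The points of Irf1 coincide at −0.55, and those of Irf7, Zbp1 and Bst2 lie on both sides of 0.

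Levels per transcript length were compared as TPM, the authors' length-scaled unit, within each library. Irf1 stood highest in all 4 libraries, at 27.2 and 58.4 TPM in LISC and 43.9 and 76.6 TPM in SISC, followed in all 4 by Irf8, Bst2, Oas1a and Irf7. Irf1 exceeded 86.8% to 91.0% of tested genes in each library, and Irf8 exceeded 81.0% to 87.3%. Below these, Stat2, Isg15, Zbp1 and Oas2 did not keep their order: Stat2 was above Isg15 in 3 of 4 libraries, Isg15 above Zbp1 in 2 and Zbp1 above Oas2 in 3. Oas2 was at 0.97 and 1.04 TPM in LISC and at 0.17 and 0.02 TPM in SISC. Of the genes with an ISRE-type pair, Isg15 lay between 1.52 and 7.10 TPM and Bst2 between 14.2 and 34.2 TPM.

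The rest of the interferon pathway was read from 10 lists of 142 genes, of which 105 were tested. No gene of these lists was called by edgeR, the smallest adjusted p being 0.0864, and 14 of the 105 (13.3%) had an unadjusted p below 0.05, against 13.4% of all tested genes. Other settings made calls in 6 of the lists. DESeq2, which called 8.35% of all genes, called 5 of these genes. Without the filter, where edgeR called 5.86% of all genes, 9 were called. With the replicate block, under which edgeR called 10.9% of all genes, 10 were called, among them Stat6, Ptpn6, Tmem173, Mlkl, Socs3 and Iigp1. The receptor, other OAS and ISG15 conjugation lists had 0 calls in each of these 3 settings. The median log2 difference of the 105 was 0.03, against −0.02 over all tested genes, and 84 of them differed by less than 1 on the log2 scale.

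At the head of the pathway, the 21 interferon genes examined (type I, type III and Ifng) had 0 counts in all 4 libraries. A count of 0 allows up to 3 counts per gene, or 0.234 and 0.124 CPM on the unscaled totals in LISC and 0.182 and 0.110 CPM in SISC. The receptor chains were all read, and 0 of 9 receptor and Janus kinase genes were called (median log2 difference −0.06, range −0.72 to 0.24). Ifnar2, a chain of the type I receptor, was read at 4.91 and 8.46 CPM in LISC, against 9.75 and 12.4 CPM in SISC (log2 −0.72 ± 0.39). For the kinase gene Jak1 the log2 difference was −0.42 ± 0.30 and for Ifngr2, a type II receptor chain, it was −0.41 ± 0.27.

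Among 11 other STAT and IRF factors, 9 were tested and 0 called, with a median log2 difference of −0.21. Irf9, which encodes a partner of STAT2, had a log2 difference of −0.40 ± 0.24 and was added after its values were seen. Stat6, the factor of interleukin-4 and interleukin-13 signalling, was read at 73.5 and 59.3 CPM in LISC, against 114 and 97.1 CPM in SISC (log2 −0.67 ± 0.28, edgeR adjusted p = 0.422). Stat5a and Irf2 had log2 differences of 0.54 ± 0.34 and −0.42 ± 0.24.

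Of 10 inhibitors of interferon signalling, 9 were tested and 0 called (median log2 difference −0.31). Socs3, which blocks Janus kinases and is induced mainly by STAT3, came nearest to a call. It was read at 3.80 and 5.33 CPM in LISC, against 34.2 and 16.3 CPM in SISC, groups that did not overlap. Its log2 difference was −2.45 ± 0.46 (edgeR adjusted p = 0.0864), and it was −2.92 without SISC replicate 2. Socs3 was called by DESeq2, by edgeR with no filter on low counts and by edgeR with the replicate block. The phosphatase gene Ptpn6 was read at 19.8 and 43.2 CPM in LISC, against 12.2 and 15.5 CPM in SISC (log2 1.19 ± 0.44), and Trim24 had a log2 difference of −0.50 ± 0.29. Usp18, which removes ISG15 from its targets and silences the type I receptor, did not pass the filter on low counts.

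The other OAS genes formed a list of 10, of which 6 were tested and 0 called. Their median log2 difference was 1.02 and 5 of the 6 were above 0, against a median of −0.02 over all tested genes. Of those 5, Oas3 was at 0.02, with a 95% interval from −2.69 to 2.72. The largest differences were those of Oas1b (1.63 ± 0.87) and Oas1c (1.43 ± 0.81), which rest on few reads, with 3 to 54 counts per library. Oas1g was read at 6.49 and 7.84 CPM in LISC, against 4.66 and 1.72 CPM in SISC, so that both LISC libraries were above both SISC libraries. Its log2 difference was 1.19 ± 0.60 (95% interval −0.35 to 2.72, edgeR adjusted p = 0.547), and it was 0.48 and 2.19 within replicate numbers 1 and 2. Oas1g is a close copy of Oas1a, and its value is uncertain for the same reason. Oasl1 was read at 3.24 and 4.67 CPM in LISC, against 2.11 and 2.28 CPM in SISC (log2 0.85 ± 0.49). Oasl2, which encodes an OAS-like protein, was the single one of the 6 below 0, with 13.6 and 14.0 CPM in LISC, against 18.1 and 18.5 CPM in SISC (log2 −0.41 ± 0.23, edgeR adjusted p = 0.635).

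In the list of ISG15 conjugation, 4 of 5 genes were tested and 0 called. The enzyme genes Uba7 and Ube2l6, which encode the activating and conjugating enzymes of ISG15, had log2 differences of −0.16 ± 0.35 and −0.38 ± 0.46, and Trim25 had −0.07 ± 0.25. Among 12 nucleic acid sensors and adaptors, 11 were tested and 0 called. Tmem173, which encodes the adaptor STING, was read at 12.0 and 12.5 CPM in LISC, against 5.38 and 5.59 CPM in SISC, replicates close together in both groups. Its log2 difference was 1.16 ± 0.29 (95% interval 0.42 to 1.90, edgeR adjusted p = 0.149), and 1.16 within each replicate number. Trex1, a nuclease that removes cytosolic DNA, had a log2 difference of −0.94 ± 0.33 and the kinase gene Ikbke of 0.41 ± 0.29.

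Of the 5 partners of ZBP1 in necroptosis, 0 were called. Mlkl, the effector that permeabilises the membrane, was read at 9.27 and 16.7 CPM in LISC, against 3.78 and 6.22 CPM in SISC (log2 1.37 ± 0.45, edgeR adjusted p = 0.276). Ripk3, the kinase that joins ZBP1 to MLKL, had a log2 difference of −0.31 ± 0.22 and Casp8, which restrains necroptosis, of 0.43 ± 0.27.

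Of 42 other interferon-stimulated genes, 38 were tested and 0 called, with 20 above 0 and 18 below 0 and a median log2 difference of 0.01. Apol9a was read at 1.95 and 1.51 CPM in LISC, against 0.146 and 0.125 CPM in SISC (log2 3.63 ± 0.79, edgeR adjusted p = 0.117), and Slfn2 at 0.556 and 0.206 CPM in LISC, against 2.33 and 3.50 CPM in SISC (log2 −3.01 ± 0.80, adjusted p = 0.174). DESeq2 called both, and also Lgals9 and, among the GTPases, Iigp1. Without the filter edgeR called these as well, and with the replicate block it called each of them but Slfn2. Ifi27l2a had a log2 difference of 2.53 ± 0.82.

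The sum of these 42 genes was 1303 and 1303 CPM in LISC, against 1704 and 1699 CPM in SISC. Lgals9, which encodes galectin-9 and was singled out after its values were seen, made up much of that gap. It was read at 158 and 150 CPM in LISC, against 471 and 443 CPM in SISC, which is −1.57 ± 0.32 on the log2 scale (edgeR adjusted p = 0.0969), with −1.58 and −1.56 within replicate numbers 1 and 2. The levels within the list were very unequal. Ifitm2, a membrane protein gene that restricts virus entry, stood at 384 and 721 TPM in LISC, against 513 and 785 TPM in SISC, while the antiviral gene Mx1 was at 0.07 TPM in both LISC libraries and at 0 and 0.01 TPM in SISC (both chosen after their values were seen).

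Of 18 GTPase genes induced by type II interferon, 14 were tested and 0 called (median log2 difference 0.21). Iigp1 was read at 13.5 and 8.83 CPM in LISC, against 3.64 and 1.87 CPM in SISC (log2 2.03 ± 0.50, edgeR adjusted p = 0.149). Tgtp1, which has a near-identical copy in Tgtp2, had a log2 difference of 1.12 ± 0.66, and Nlrc5, a regulator of MHC class I genes listed with them, had −1.10 ± 0.66.

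**Figure D4:**
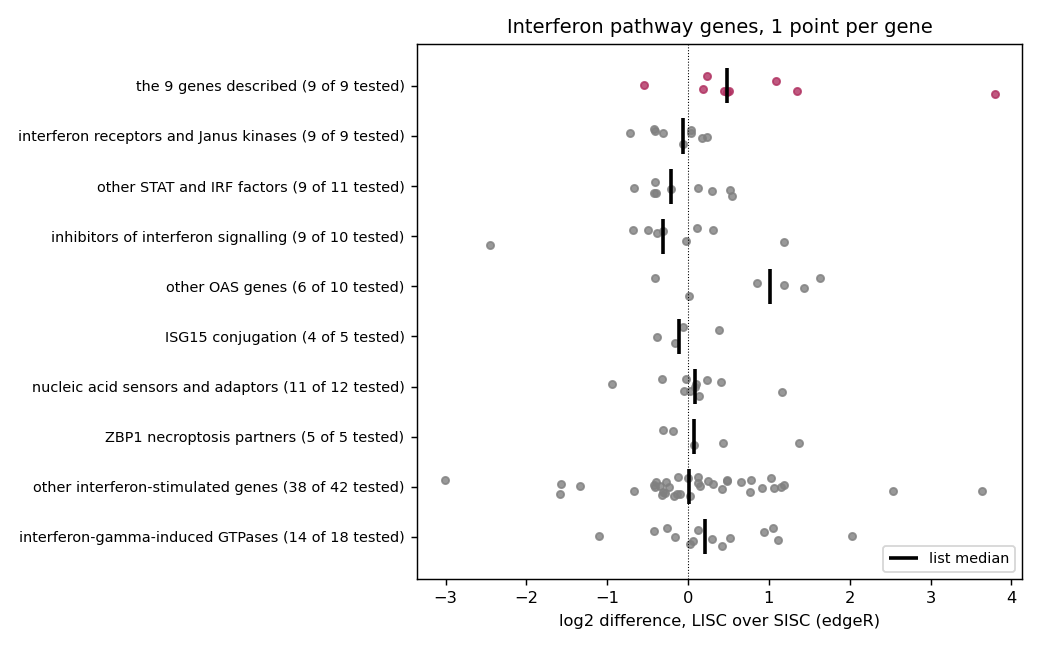
Log2 difference of LISC over SISC (horizontal axis) for each tested gene of the 9 described (red) and of 9 interferon pathway lists (grey), with black bars for list medians. The interferon genes themselves are not shown because none was tested. Medians lie between −0.31 and 1.02, and Oas2 is the rightmost point at 3.80.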

How the data were processed

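Gene tables of 4 poly(A)-selected, strand-marking libraries were used, 2 LISC and 2 SISC, grouped and numbered by their titles. The submitters' processing notes name STAR 2.7.2b, RSEM 1.2.31 and the build GRCm38 (mm10). The sources used here do not give the annotation release or the strand setting. The authors deposited RSEM expected counts, where a read matching more than 1 gene is shared out by estimated abundance, and TPM, which is scaled by effective length and by the RNA of the whole library, rRNA included. RSEM's posterior SD of each count was also deposited and describes that division. Identifiers were matched to GENCODE vM21 (55227 of 55487 had a symbol). Coordinates are 1-based.

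Expected counts were rounded. The fit used edgeR 4.0.16 under R 4.3.3 (quasi-likelihood test, group as the only term, TMM, filterByExpr with a minimum count of 10, Benjamini-Hochberg over the 14165 genes kept, threshold 0.05). Standard errors are the log2 difference divided by the square root of F, and 95% intervals use the t quantile of the fit. The median of all log2 differences was −0.02. No library was a copy of another: the chi-square between replicates, divided by its degrees of freedom, was 833 in LISC and 892 in SISC. The fit was tested on simulated data with 1 common dispersion and 50 changed genes at each size. The changed genes were drawn from those with an expected count above 50 at the mean library size. Recovery at lower counts, such as those of Oas2 and Isg15 in SISC, was not measured. The fit recovered 0% of 2-fold, 24% of 4-fold, 84% of 8-fold and 100% of 16-fold changes, and called 0 unchanged genes. Alternatives were DESeq2 1.42.0, its size factors in edgeR, rRNA genes left out, no filter or a minimum count of 50, a block on replicate number, limma-trend (limma 3.58.1) on log2(TPM + 1) and log2(TPM + 0.1), and each library left out.

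The members and lists were chosen with earlier results of these data known. Named besides the 9 genes were, per pathway list, the called genes and the 3 others with the largest log2 difference at a TPM of at least 1, and the 5 profiles nearest to the member with the largest difference. Markers of cell types, and Oas1b, Oas1c and Oas3, were named outside that rule, after their values were seen. Some genes of the lists are not reported here and were left out of the list counts and sums.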

Additional observations from a re-analysis of the deposited data

How the results depend on the processing

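Oas2 was the single one of the 9 genes called under any of the 12 alternatives, by DESeq2 (1 gene called higher in LISC), without the filter on low counts (1) and with replicate number as a block (1; log2 4.04, adjusted p = 0.0274). Leaving out 1 library at a time called 0 of the 9, with the lone library of a group assumed to vary like the other group. Over those 4 fits the log2 difference of Irf7 ran from −0.18 to 1.59, of Bst2 from −0.12 to 0.53, of Zbp1 from −0.0024 to 1.69, of Uba7 from −0.54 to 0.16 and of Trim25 from −0.19 to 0.027. Bst2 was −0.0034 without LISC replicate 2, and Uba7 0.06 without SISC replicate 1. Of 106 recomputed values for the 9 genes, 102 kept their direction; Isg15 and Zbp1 had none at a minimum count of 50. The cause of these changes was not tested.

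Over all genes, edgeR called 206 with higher values in LISC and 105 with higher values in SISC. DESeq2 called 785 and 398, edgeR without the filter 942 and 465, limma-trend 353 and 172 with a pseudocount of 1 and 372 and 179 with 0.1, and leaving out 1 library 166 to 338 (338 without SISC replicate 1) and 79 to 149. The replicate block called 1015 and 524. The labels do not say that the numbers pair samples, and by sex-linked genes the replicate 1 libraries came from different animals. Deviations from group means correlated at 0.648 between libraries of the same number. Depth limits Oas2, Isg15 and Zbp1 most, with 2 to 167 counts per library, and for 8 of the 9 genes the 95% interval includes a 2-fold difference.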
